A study of Mus musculus with 32 samples.

Results

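The 10 genes of hepatic stellate cells and of the liver's fibrous matrix, Acta2, Tagln, Myl9, Des, Col1a1, Col1a2, Col3a1, Timp1, Lrat and Dcn, were followed in bulk liver RNA. They were picked by name as contractile, collagen and stellate cell genes, around Acta2, whose level had been seen to be higher in knockout mice than in wild-type mice in 2 conditions. All 10 were found among the 20076 genes of the table. The liver of male C57BL/6J mice was sampled in 8 groups of 4, set by genotype (Acadm-knockout, called KO, or wild type, WT), by the diet eaten over 6 weeks (LF, low in fat, or HF, high in fat) and by whether food was kept (fed) or withdrawn (fasted) over the last 16 h. Acadm encodes the medium-chain acyl-CoA dehydrogenase MCAD, an enzyme of mitochondrial fatty acid oxidation, and the KO mice had been backcrossed and were compared with WT littermates. The knockout is not limited to a cell type, and the ages in the labels ran from 7.5 to 16 without a unit. Left out were WT LF fed replicate 2, an outlier whose collagen levels also lie far from the rest, and KO HF fasted replicate 4, rich in heart transcripts. This left 30 mice, with 3 in those 2 groups.

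Hepatic stellate cells lie between the sinusoidal endothelium and the hepatocytes. At rest they store vitamin A as retinyl esters, and after injury they turn into contractile, matrix-producing cells that are a main source of the fibrillar collagens of liver scars. Lrat esterifies retinol and marks resting cells. Acta2 (smooth muscle alpha-actin), Tagln (transgelin) and Myl9 (a myosin regulatory light chain) belong to the contractile machinery of activated cells, and also to that of vascular smooth muscle. Des encodes desmin, an intermediate filament protein of stellate cells and of every type of muscle. Col1a1 and Col1a2 encode the chains of type I collagen and Col3a1 that of type III collagen, Dcn encodes decorin, a proteoglycan that binds collagen fibrils, and Timp1 encodes an inhibitor of matrix metalloproteinases.

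The libraries hold 2031053 to 4292200 counted reads per mouse, and levels are given as CPM, counts per 1000000 after TMM scaling. One count is therefore worth a sizeable part of 1 CPM, and a level of 3 counts or less was treated as not told apart from 0. Acadm, the targeted gene, was lower in KO than in WT in all 4 conditions, by -3.73 (LF fed) to -4.73 (HF fed) on the log2 scale, so that the genotypes in the labels held. All 10 hepatocyte genes of a marker list were counted in every one of the 30 mice, with a summed level of 42112 to 69263 CPM. Lrat had 22 to 185 counts and Dcn 725 to 1665 counts in every mouse, and of 16 other genes of resting stellate cells only Gfap was too low to be tested, so that transcripts of stellate cells were measurable in every library. In bulk RNA, fewer cells of a type and less RNA per cell cannot be told apart.

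The promoters of 4 members are shown, the anchor Acta2 and Col1a2, Col3a1 and Myl9, which were lower with fasting. Lrat was lower with fasting as well, and its window is not printed. Each is the RefSeq window of GRCm38.p6 from 250 bases before to 50 bases after the annotated start, written 5′ to 3′ on the strand of the gene, and capitals mark a match, on either strand, to any of 4 motifs. These were the CArG box in its strict form, the TATA box as TATAAA, the box of letters CCAAT, and the AP-1 site, written TGANTCA. A CArG box can hold TATAAA within it, and the others do not overlap in the windows shown.
Acta2, chr19:34255324-34255623, minus strand: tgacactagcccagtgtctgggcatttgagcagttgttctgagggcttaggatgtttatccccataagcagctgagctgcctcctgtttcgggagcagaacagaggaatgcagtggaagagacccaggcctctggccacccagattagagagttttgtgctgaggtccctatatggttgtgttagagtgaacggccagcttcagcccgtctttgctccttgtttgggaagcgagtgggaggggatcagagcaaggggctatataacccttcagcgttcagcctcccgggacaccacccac
Myl9, chr2:156775214-156775513, plus strand: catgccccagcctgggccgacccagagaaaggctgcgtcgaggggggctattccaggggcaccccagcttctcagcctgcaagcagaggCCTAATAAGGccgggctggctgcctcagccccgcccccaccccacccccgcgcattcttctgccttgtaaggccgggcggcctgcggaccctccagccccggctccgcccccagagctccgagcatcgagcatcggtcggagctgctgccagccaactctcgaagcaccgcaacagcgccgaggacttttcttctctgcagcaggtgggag
Col1a2, chr6:4505368-4505667, plus strand: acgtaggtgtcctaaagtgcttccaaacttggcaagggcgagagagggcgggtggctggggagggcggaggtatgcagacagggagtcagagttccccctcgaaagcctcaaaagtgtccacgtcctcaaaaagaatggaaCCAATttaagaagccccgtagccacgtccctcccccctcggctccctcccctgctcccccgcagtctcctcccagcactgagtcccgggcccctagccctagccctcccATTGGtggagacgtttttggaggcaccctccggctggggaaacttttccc
Col3a1, chr1:45311288-45311587, plus strand: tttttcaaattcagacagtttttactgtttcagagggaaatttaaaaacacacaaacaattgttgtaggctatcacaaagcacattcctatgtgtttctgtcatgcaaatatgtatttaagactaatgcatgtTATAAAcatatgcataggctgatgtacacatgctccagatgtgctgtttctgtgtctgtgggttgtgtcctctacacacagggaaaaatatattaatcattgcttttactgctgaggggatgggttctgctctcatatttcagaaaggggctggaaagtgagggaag
The Myl9 window holds a CArG box, the core letters bound by serum response factor, at -161, and 1.63% of the 32851 promoter windows of the table hold one. Col1a2 has CCAAT at -109 and its reverse complement at 1, letters found in 37.4% of windows, and Col3a1 has TATAAA at -117, found in 13.6%. TGANTCA, found in 7.81% of windows, was in none of the 7 member windows that the table holds, and the windows of Acta2 and Des had no match to any of the 4 motifs. For the CArG box and the TATA box this means only that the searched form is not in these windows, since forms with a mismatch were not searched. The Acta2 window, for one, holds the letters tatataa, after the annotated start. It also holds ccctatatgg and ccttgtttgg, each 1 letter off the strict CArG box. The windows of Timp1 and Lrat each held 1 CCAAT.

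The type III collagen gene Col3a1 (ENSMUSG00000026043, chromosome 1, 45311538 to 45349706) was lower in fasted livers on both diets. On the low-fat diet it stood at 24.7, 23.9 and 12.0 CPM in the WT fed mice and at 3.38, 3.20, 2.98 and 8.11 CPM in the WT fasted mice. In KO mice the LF fed values were 15.0, 13.7, 16.9 and 11.7 CPM and the LF fasted values 4.81, 4.64, 5.67 and 1.55 CPM. Every LF fed mouse was above every LF fasted mouse in both genotypes. On the high-fat diet the WT values were 19.3, 14.4, 41.5 and 25.3 CPM fed and 10.4, 16.2, 10.1 and 9.52 CPM fasted. The KO values were 37.4, 15.9, 23.4 and 20.6 CPM fed against 15.2, 13.2 and 15.6 CPM fasted. The KO HF fed and fasted mice did not overlap, and the WT HF groups overlapped only through fasted replicate 2, which was above fed replicate 2. Over genotypes and diets fasting changed Col3a1 by -1.44 on the log2 scale (SE 0.18, 2.71-fold lower, edgeR quasi-likelihood adjusted p = 9.6e-08), and each of the 4 genotype and diet strata showed a negative change, from -0.72 in KO HF to -2.11 in WT LF.

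**Figure D1:**
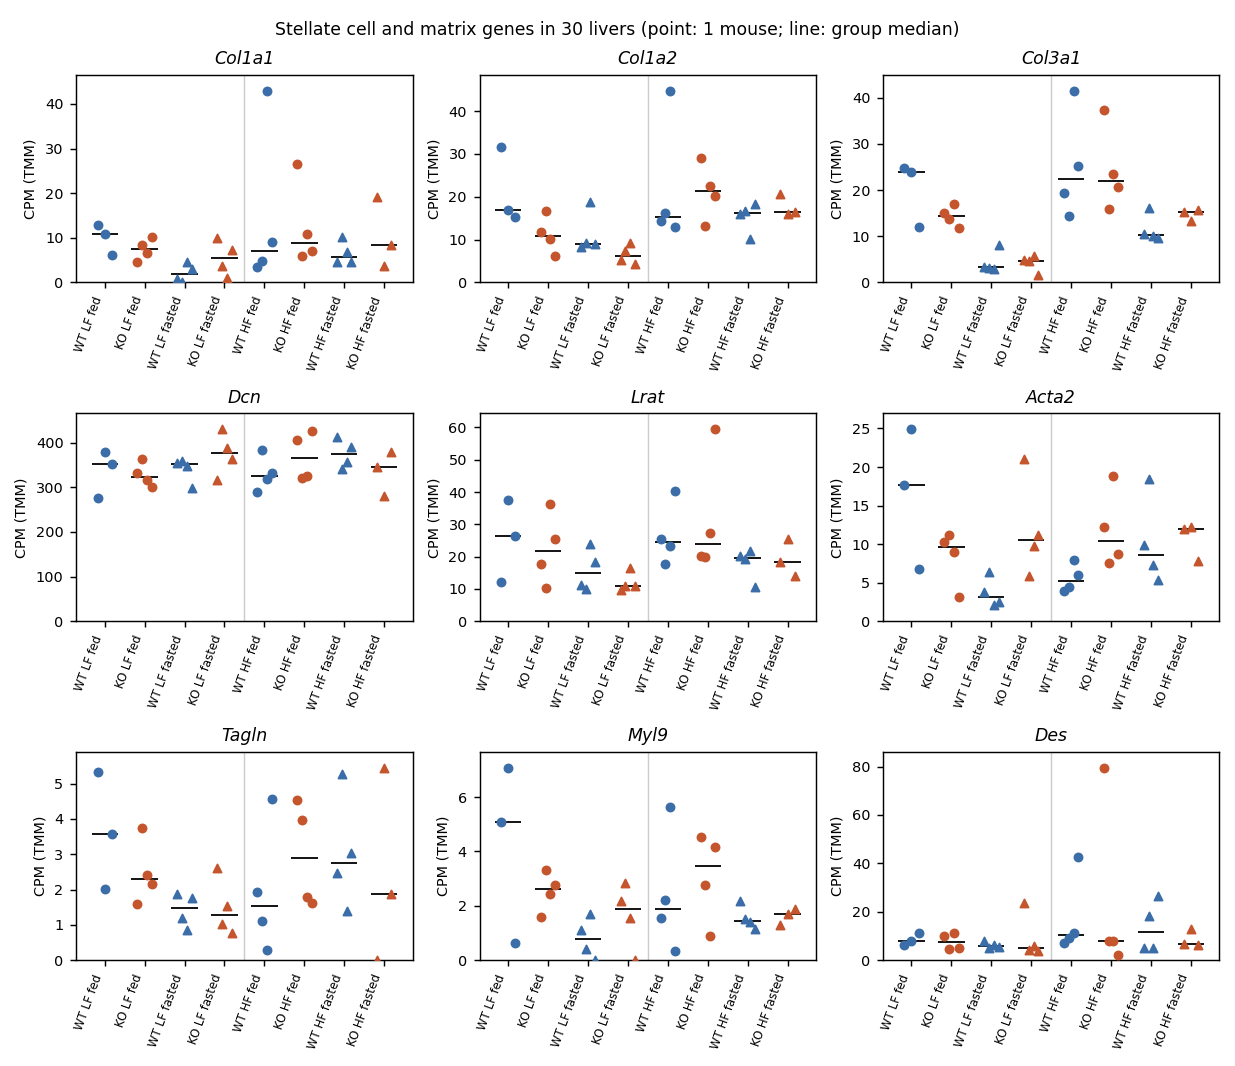
Level of 9 of the genes in the 30 livers, in CPM on linear axes that start at 0. Each point is a mouse (blue WT, orange KO, circles fed, triangles fasted) and each black line a group median; Col3a1 in the LF fasted triangles stays at or below 8.11 CPM while the LF fed circles start at 11.7 CPM.

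Of the type I collagen genes, Col1a2 was lower in fasted mice and Col1a1 did not pass the test. Col1a2 (ENSMUSG00000029661, chromosome 6, 4504814 to 4541544) was at 31.5, 16.8 and 15.2 CPM in WT LF fed mice against 8.26, 9.19, 18.7 and 8.87 CPM in WT LF fasted mice, and at 11.8, 16.6, 10.0 and 6.18 CPM in KO LF fed mice against 5.25, 7.22, 9.28 and 4.25 CPM in KO LF fasted mice. On the high-fat diet it was at 14.3, 16.3, 44.8 and 13.0 CPM in WT fed, 29.0, 13.1, 22.5 and 20.2 CPM in KO fed, 15.9, 16.6, 10.1 and 18.3 CPM in WT fasted and 20.7, 16.0 and 16.4 CPM in KO fasted mice. The fed and fasted values overlapped on both diets. The fasting change was -0.63 (SE 0.19, edgeR adjusted p = 0.0142), and without WT LF fed replicate 1 it was -0.53 with an adjusted p of 0.0508. Col1a1 (ENSMUSG00000001506, chromosome 11, 94936224 to 94953042) had a median of 8.31 CPM in LF fed mice (4.47 to 12.8, n = 7) and 3.33 CPM in LF fasted mice (0 to 10.1, n = 8), and of 8.10 CPM in HF fed mice (3.48 to 43.0, n = 8) and 6.78 CPM in HF fasted mice (3.74 to 19.1, n = 7). Its fasting change of -1.03 did not pass the edgeR test (SE 0.39, adjusted p = 0.0687), while DESeq2 gave an adjusted p of 0.0470. Without KO HF fasted replicate 1, WT HF fed replicate 1, WT HF fed replicate 2 or WT LF fasted replicate 3 it passed, at adjusted p of 0.0349, 0.0388, 0.0458 and 0.0451.

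Lrat (ENSMUSG00000028003, chromosome 3, 82892579 to 82903973), the retinol-esterifying enzyme of resting stellate cells, was also lower after fasting. Its level was 10.4 to 37.7 CPM in LF fed mice (median 25.3) and 9.62 to 23.8 CPM in LF fasted mice (median 11.0), and 17.7 to 59.4 CPM in HF fed mice (median 24.5) against 10.7 to 25.5 CPM in HF fasted mice (median 19.2). The ranges overlapped on both diets, and KO HF fed replicate 4 held the highest value. The change was -0.72 (SE 0.20, edgeR adjusted p = 0.0112). By the sequencing lanes of the labels it was -0.13 over the 16 mice of lane 7 (adjusted p = 0.793) and -0.99 over the 14 mice of lane 8 (adjusted p = 0.0535), and the difference between lanes was not tested. The labels put more libraries on a lane than the pools in the study's methods held, so that what a lane of the labels stands for is uncertain wherever lane is used here.

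Of the contractile genes, Myl9 (ENSMUSG00000067818, chromosome 2, 156775420 to 156781658) was lower in fasted mice at very low counts. It had 1 to 21 counts in the fed mice (0.351 to 7.06 CPM, median 2.78, n = 15) and 0 to 11 counts in the fasted mice (0 to 2.84 CPM, median 1.51, n = 15), and the ranges overlapped. The change was -1.14 (SE 0.40, edgeR adjusted p = 0.0420), a call near the threshold, since leaving out any of 17 mice in turn gave an adjusted p between 0.0503 and 0.117, the highest without WT HF fed replicate 3, and limma voom gave 0.0920. Tagln (ENSMUSG00000032085, chromosome 9, 45929619 to 45936058) ran from 0 to 22 counts over all mice and changed by -0.43 with fasting (SE 0.37, adjusted p = 0.490). Acta2 (ENSMUSG00000035783, chromosome 19, 34241090 to 34255590) changed by -0.24 (SE 0.23, adjusted p = 0.538), and its strata pointed in different directions, with -2.15 in WT LF and 0.84 in WT HF. Des (ENSMUSG00000026208, chromosome 1, 75360329 to 75368579) changed by -0.51 (SE 0.45, adjusted p = 0.504) and by 0.09 without the 3 mice richest in muscle transcripts.

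Decorin stayed within a narrow range. Dcn (ENSMUSG00000019929, chromosome 10, 97479609 to 97518143) stood between 276 and 429 CPM in all 30 mice, with 341 ± 43.2 CPM (SD, n = 15) fed and 357 ± 39.7 CPM (SD, n = 15) fasted, and its fasting change of 0.07 (SE 0.08) did not pass the test (adjusted p = 0.624). Timp1 (ENSMUSG00000001131, chromosome X, 20870166 to 20874735), which is induced in activated stellate cells, was at 0 counts in all but 3 of the 30 mice and at no more than 2 counts in those, KO HF fasted replicates 1 and 2 and KO HF fed replicate 2. It was too low to be tested, and a count of 0 allows up to 3 counts.

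Counted together, 4 of the 9 members that could be tested were lower in fasted mice and 0 were higher, where 18.9% of all 11566 genes tested passed in either direction with 9.14% lower and 9.77% higher. The median change over the 9 was -0.63, beside -0.00219 over all genes tested. Of the other cell types in the liver, the summed level of the macrophage list was 482 to 654 CPM in fed mice (median 572) and 336 to 867 CPM in fasted mice (median 422), and that of the biliary list 57.6 to 97.2 CPM (median 68.1) and 49.5 to 141 CPM (median 59.6). The endothelial list was at 330 to 434 CPM fed (median 397) and 307 to 513 CPM fasted (median 376), and the hepatocyte list at medians of 48468 and 55823 CPM. The mesothelial and portal fibroblast list had 7.07 to 29.3 CPM in fed mice (median 11.1) and 3.20 to 12.8 CPM in fasted mice (median 7.88), with 3 to 9 of its 10 genes counted in a mouse. The erythroid list had medians of 790 CPM fed and 621 CPM fasted. Medians of the adipose list were 43.6 and 171 CPM, with 3 to 8 of its 8 genes counted in a mouse, and its single genes are not given here. The part of these differences in the fall of the collagen genes was not tested.

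The diet comparison asked which members differed after 6 weeks of high-fat feeding. Col3a1 and Col1a2 were higher on the high-fat diet, so that 2 of the 9 tested members were called and both were higher, where 3.49% of all genes tested passed, 2.26% higher and 1.24% lower. Col3a1 rose by 1.05 on the log2 scale (SE 0.18, 2.07-fold, edgeR adjusted p = 0.000325), and the excess was 0.33 in WT fed, 0.75 in KO fed, 1.30 in WT fasted and 1.81 in KO fasted mice. The 8 LF fasted mice (at most 8.11 CPM) lay below the 7 HF fasted mice (at least 9.52 CPM), whereas the LF fed and HF fed ranges overlapped. Col1a2 rose by 0.72 (SE 0.19, 1.65-fold, adjusted p = 0.0231), and missed the threshold without WT HF fed replicate 3 (0.57, adjusted p = 0.0546), WT LF fed replicate 3 (0.68, 0.0507) or WT LF fed replicate 4 (0.67, 0.0511).

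WT HF fed replicate 3 held the highest level of all 3 collagen genes among the 30 mice, 43.0 CPM of Col1a1, 44.8 CPM of Col1a2 and 41.5 CPM of Col3a1. Col1a1 differed by 0.97 (SE 0.39, adjusted p = 0.203) and by 0.62 without that mouse. Des differed by 0.94 (SE 0.45, adjusted p = 0.310) and Lrat by 0.37 (SE 0.20, adjusted p = 0.402), and neither passed. Acta2, Tagln, Myl9 and Dcn had differences of 0.07, 0.27, 0.13 and 0.03. The median over the 9 members was 0.37, beside 0.0068 over all genes tested. Both calls were lost when WT LF fed replicate 2, with its high collagen levels, was kept in (31 mice, Col3a1 0.61, adjusted p = 0.409; Col1a2 0.37, adjusted p = 0.629).

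**Figure D2:**
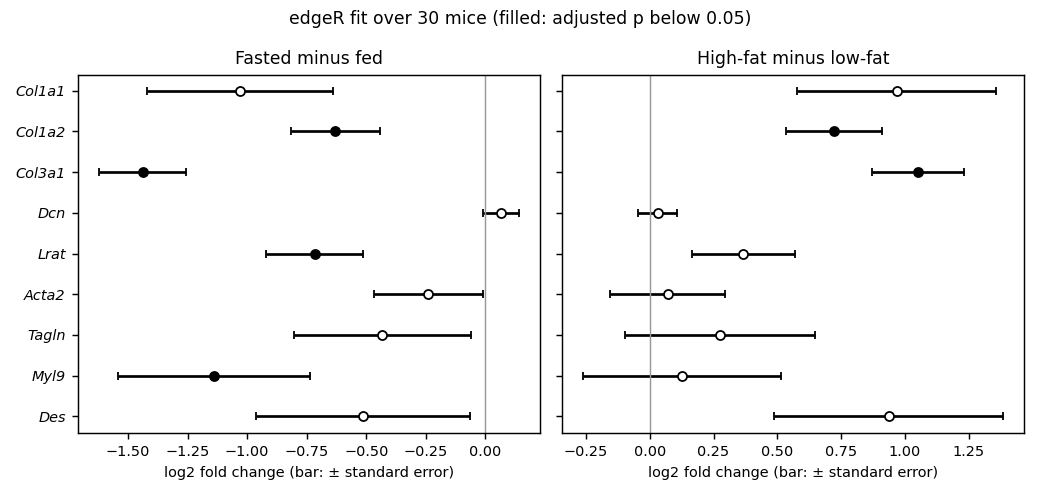
Log2 fold change of 9 members with fasting (left) and with the high-fat diet (right) in the edgeR fit over 30 mice, bars giving the standard error and filled points an adjusted p below 0.05. Col3a1 and Col1a2 are filled on both sides, below 0 with fasting (-1.44 and -0.63) and above 0 with the high-fat diet (1.05 and 0.72).

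Whether the fasting change differed between the diets was tested directly. In 285 genes, 2.46% of those tested, it did (1.26% with a more positive and 1.2% with a more negative change on the high-fat diet), and in 0 of the 9 members by edgeR, DESeq2 or limma voom. Of the 9, 2 had an unadjusted p below 0.05 in edgeR. The fasting change of Col3a1 was less negative on the high-fat diet by 1.01 (SE 0.36, adjusted p = 0.145), and without WT LF fasted replicate 4 by 1.28 with an adjusted p of 0.0471. For Acta2 the difference was 1.16 (SE 0.46, adjusted p = 0.216).

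Acta2, the anchor, is described in each KO to WT comparison without a test, because the set was chosen on it. On the low-fat diet after fasting it stood at 3.75, 6.39, 2.12 and 2.53 CPM in WT and at 21.0, 5.93, 9.80 and 11.2 CPM in KO mice. The groups overlapped by 1 KO mouse, replicate 2, which was below WT replicate 2, and the log2 difference was 1.69 (SE 0.49). On the high-fat diet in the fed state it stood at 3.86, 4.43, 8.01 and 5.97 CPM in WT and at 12.2, 7.55, 18.9 and 8.67 CPM in KO mice. Again only KO replicate 2 fell within the WT range, and the difference was 1.08 (SE 0.36). In these conditions 0.0104% and 0.00998% of all genes tested passed the edgeR test, which in each is Acadm alone.

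In both other conditions the Acta2 values of KO and WT mice overlapped. WT LF fed mice had 17.7, 24.9 and 6.81 CPM and KO LF fed mice 10.2, 11.2, 8.99 and 3.09 CPM, a log2 difference of -0.97 (SE 0.43) with a range of -1.33 to -0.56 over fits that each omitted 1 mouse. WT HF fasted mice had 9.86, 18.5, 7.25 and 5.33 CPM and KO HF fasted mice 12.0, 12.2 and 7.82 CPM, a difference of 0.06 (SE 0.37). Without WT HF fasted replicate 2, which had the highest Acta2 level of its group and was rich in pancreas transcripts, that difference was 0.48, and without WT HF fasted replicate 4 it was -0.13. Over the 8 groups the highest median was in WT LF fed and the lowest in WT LF fasted mice, 17.7 and 3.14 CPM, while the KO medians ran from 9.60 to 12.0 CPM. All WT LF fed mice were sequenced on lane 8, and with lane as a term the LF fed difference was -1.45.

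The other members are likewise given without a test in the conditions where Acta2 was higher. In LF fasted mice Col1a2 was lower in KO by -0.78 (SE 0.41), Lrat by -0.41 (SE 0.35) and Col3a1 by -0.12 (SE 0.54), while Des (0.58, SE 0.55) and Dcn (0.15, SE 0.19) had positive values. The Des value became -0.41 without KO LF fasted replicate 1, and that of Col3a1 0.37 without WT LF fasted replicate 4. Tagln was at 2 to 7 counts in both genotypes. Myl9 was at 0 to 4 counts in WT and 0 to 11 in KO. Col1a1 was at 0 to 12 counts in WT (median 1.90 CPM, 0 to 4.68) and 2 to 23 in KO (median 5.48 CPM, 1.03 to 10.1). Tagln, Myl9 and Col1a1 were too low to be fitted there. In HF fed mice the differences of Col1a1, Col1a2, Col3a1, Lrat, Dcn and Des lay between -0.30 and 0.46, with standard errors of 0.14 (Dcn) to 1.2 (Des). The Des value of 0.46 became -1.56 without KO HF fed replicate 1, a mouse with muscle transcripts. Without WT HF fed replicate 3, the mouse with the highest collagen levels, the difference of Col1a1 went from -0.30 to 1.11, that of Col1a2 from -0.07 to 0.56 and that of Col3a1 from -0.06 to 0.31, and without KO HF fed replicate 4 that of Lrat went from 0.25 to -0.25.

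In the other conditions, LF fed and HF fasted, no tested member passed a KO to WT test, and Acta2 was not tested. Earlier results of these data were known when the members were chosen, so these conditions were not independent of that choice. In LF fed mice 0 of 8 tested members were called by edgeR, DESeq2 or limma voom, where 0.0193% of all genes passed in edgeR, and 1 had an unadjusted p below 0.05, Col1a2 with -0.93 (SE 0.34, adjusted p = 0.787). All 8 differences in LF fed mice were negative, from -0.93 to -0.01, where 50.8% of all genes tested had a positive value. Those of Dcn, Des and Lrat each changed sign in 4 of 16 other fits. The WT LF fed mice were all on lane 8 and the KO LF fed mice on both lanes. In HF fasted mice 0 of 6 were called by any of the 3 tools, where 0.0096% of all genes passed in edgeR, 0 had an unadjusted p below 0.05, and the differences ran from -0.63 (Des, SE 0.65) to 0.67 (Col1a1, SE 0.46). The standard errors ran from 0.13 (Dcn) to 0.66 (Myl9) in LF fed mice, and only differences well above them could be detected at this depth.

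Other genes of the pathway were taken from 7 lists, and 19 of their 83 tested genes (22.9%) passed the fasting test, beside 18.9% of all genes tested. Of the 19, 14 were lower and 5 higher. With fasting 49.7% of all genes tested had a positive value. Of the other collagens, 5 of 10 tested genes fell, where 9.14% of all genes did, 0 rose and all 10 had a negative value, with a median of -0.53. They were Col5a3 (-1.11, SE 0.18, adjusted p = 1.9e-05), which was at 38.6 CPM in LF fed and 14.2 CPM in LF fasted mice (medians), Col6a2 (-1.32), Col5a1 (-0.88), Col6a3 (-0.60) and Col14a1 (-0.43). Collagen processing genes were split, with 3 of 11 lower and 2 higher. Serpinh1, the collagen-specific chaperone HSP47, fell by 1.44 on the log2 scale (SE 0.21, adjusted p = 1.6e-06), from a median of 14.9 CPM in LF fed to 3.58 CPM in LF fasted mice. The prolyl 4-hydroxylase subunits P4ha1 (-0.42) and P4hb (-0.29) fell, and the lysyl hydroxylase Plod1 (0.45) and the procollagen protease Bmp1 (0.30) rose.

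**Figure D3:**
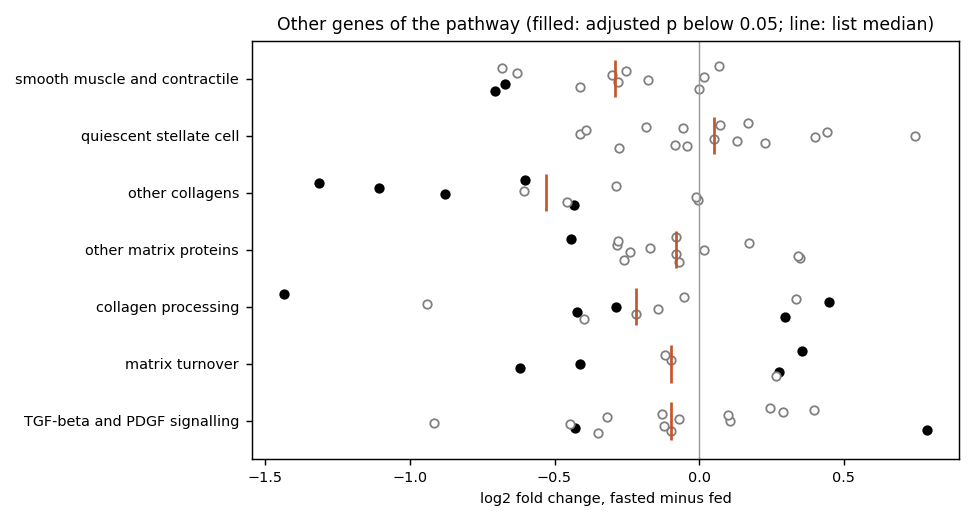
Log2 fold change with fasting of the tested genes of 7 pathway lists, one point per gene, filled where the adjusted p was below 0.05, with the list median as an orange line. All 10 points of the other collagens lie below 0, while the quiescent stellate cell list is spread around its median of 0.05.

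Of 12 smooth muscle and contractile genes 2 fell, the actin cross-linkers Actn1 (-0.71) and Flna (-0.67), 0 rose and 9 had a negative value, with a median of -0.29. Of 13 other matrix proteins 1 fell, Sparc, which binds collagen (-0.44, SE 0.10, adjusted p = 0.000833), and 9 were negative, with a median of -0.08. Of 7 matrix turnover genes 2 rose, the metalloproteinase inhibitor Timp3 (0.36) and the metalloproteinase Mmp14 (0.28), and 2 fell, Mmp15 (-0.62) and Mmp19 (-0.41). Of 15 TGF-beta and PDGF signalling genes the matricellular factor Ccn2 rose (0.79) and the TGF-beta binding protein Ltbp4 fell (-0.43). None of 15 quiescent stellate cell genes passed by edgeR, with 8 positive and 7 negative values and a median of 0.05. The medians of the matrix turnover and signalling lists were -0.10 each, that of collagen processing was -0.22, and no difference between lists was tested.

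On the high-fat diet 2 of the 83 tested genes of the 7 lists passed (2.41%, beside 3.49% of all genes tested). Tpm2, a muscle and fibroblast tropomyosin, rose by 2.34 (SE 0.45, adjusted p = 0.00326), from medians of 3.11 and 2.42 CPM in LF fed and LF fasted mice to 7.42 and 8.09 CPM in HF fed and HF fasted mice. Skil, an inhibitor of TGF-beta signalling, fell by 0.39 on the log2 scale (SE 0.12, adjusted p = 0.0486). Of the other collagens 9 of 10 were positive, with a median of 0.29, and 0 passed in either direction. Of all genes tested 51.2% had a positive diet difference.

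Muscle transcripts were most abundant in 3 mice of the high-fat diet. A list of 15 skeletal muscle genes summed to 2122 CPM in KO HF fed replicate 1, 1137 CPM in WT HF fed replicate 4 and 452 CPM in WT HF fasted replicate 4, with 14 or 15 of its genes counted, and to 0 to 58.4 CPM in the other mice (median 2.98). Of those, KO HF fed replicate 2 was at 58.4 CPM with 12 of the genes counted and KO LF fed replicate 3, on the low-fat diet, at 38.7 CPM with 14. Des was highest in the 3 mice richest in these transcripts, with 79.3, 42.8 and 26.7 CPM, and was at most 23.6 CPM elsewhere. Acta2 did not stand out in them, at 12.2, 5.97 and 5.33 CPM. Tagln (4.54, 4.56 and 3.05 CPM) stayed within the range of the others, 0 to 5.44 CPM (median 1.88). Within its group, however, KO HF fed replicate 1 had the highest Tagln level, the others being at 1.61 to 3.97 CPM. The same held for WT HF fed replicate 4 (others 0.297 to 1.93 CPM) but not for WT HF fasted replicate 4. The diet difference of Tagln went from 0.27 to -0.012 without the 3 mice. The part of muscle transcripts in its level was not tested. Without the 3 mice the fasting change of Des was 0.09 and its diet difference 0.06, whereas the HF fed KO to WT difference of Acta2 was 1.10, the fasting change of Col3a1 -1.35 and its diet difference 0.999. Tpm2 was at 55.9, 46.7 and 24.8 CPM in them, at 3.70 to 10.7 CPM in the other 12 HF mice and at 0 to 4.63 CPM in the 15 LF mice. Without the 3 mice its diet difference was 1.48 (SE 0.28, edgeR adjusted p = 0.00209), while that of Skil no longer passed (-0.38, adjusted p = 0.126).

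**Figure D4:**
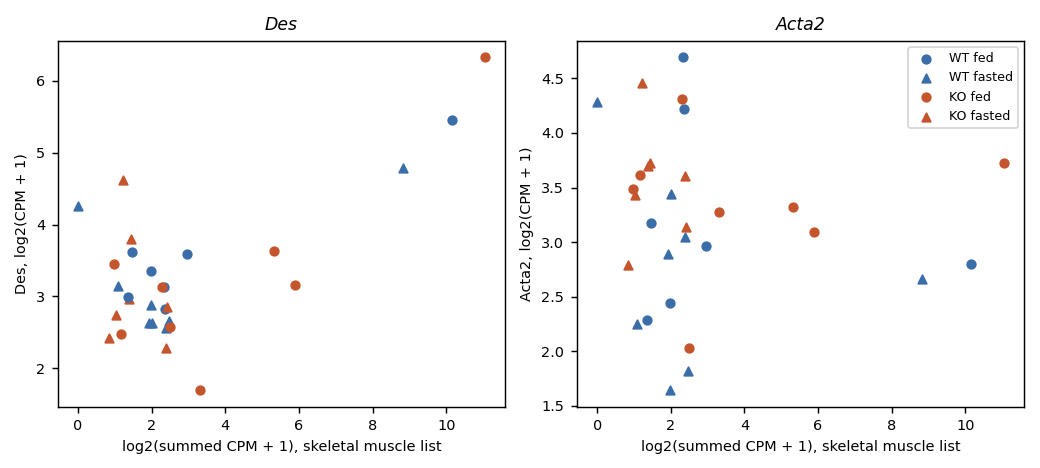
Level of Des (left) and Acta2 (right) against the summed level of 15 skeletal muscle genes in the 30 mice, both as log2(CPM + 1), blue WT, orange KO, circles fed, triangles fasted. The 3 points at the far right of each panel are the mice with 452, 1137 and 2122 CPM of the list; they are the highest in Des (26.7, 42.8 and 79.3 CPM) but lie within the range of the other mice in Acta2.

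Transcripts of other tissues were present as well. A heart list of 12 genes was at 18.7 to 37.9 CPM in the 14 mice of lane 8 (median 21.2) and at 0.639 to 60.4 CPM in the 16 mice of lane 7 (median 2.61), and KO HF fasted replicate 4, whose heart list reached 35396 CPM, was itself on lane 8. Acinar pancreas genes summed to 17162 CPM in WT HF fasted replicate 2 and 2502 CPM in KO HF fed replicate 1, and to a median of 2.76 CPM over the 30 mice. The first of these mice had the highest Col3a1 level of its group, 16.2 CPM, and the highest Acta2 level, 18.5 CPM. The second had the highest Col1a1, Col1a2 and Col3a1 levels of its group, 26.5, 29.0 and 37.4 CPM. Its Acta2 level, 12.2 CPM, was not the highest there. Its mesothelial and portal fibroblast list, at 29.3 CPM, was the highest of the 30 mice. The part of these transcripts in the member levels was not tested. With lane as a term, 4 members were called with fasting and 2 with diet.

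How the members varied together from mouse to mouse was described after the mean of each group was taken off log2 CPM. Among the 36 pairs of members Pearson's r over the 30 mice ran from -0.33 (Tagln and Dcn) to 0.51 (Myl9 and Col1a2, Spearman's rho 0.44). Next were Tagln and Des with 0.50 (rho 0.48) and Col1a2 and Col3a1 with 0.49 (rho 0.45), and without the 2 mice farthest from the median of the first gene these 3 were 0.45, 0.55 and 0.50. When values were permuted within groups, none of the 36 pairs passed the threshold of 0.05 after Benjamini-Hochberg adjustment. The lowest permutation adjusted p was 0.216 for Pearson's r (Tagln and Des) and 0.367 for Spearman's rho. For Col3a1 and Col1a2 r was 0.78 on lane 7 and 0.16 on lane 8. Col3a1 had r of 0.40 with Col1a1 and 0.38 with Acta2. Acta2 had r of 0.24 with Des, 0.13 with Myl9 and 0.07 with Tagln. The genes whose values ran most like those of Acta2 among 11565 were Prrg2 (r = 0.72), Ssrp1 (0.71), S100a6 (0.70), Cckar (0.68), Znhit6 (0.65), Plcb3 (0.64), Dmbt1 (0.64) and Flrt3 (0.63). For Col3a1 they were Apobr (0.79), Gjc3 (0.77), Cpne8 (0.68), Uqcrc1 (0.66), B330016D10Rik (0.66), Golm1 (0.65), Dhx33 (0.63) and Adal (0.63). These are descriptions over 30 mice that share library depth and lanes. Each 8 are the highest of 11565 values and were not tested, and no other member was among either 8. Mean levels ran from 1.32 CPM (Flrt3) to 53.45 CPM (Ssrp1) in those most like Acta2. In those most like Col3a1 they ran from 1.69 CPM (Apobr) to 76.45 CPM (Uqcrc1).

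The 2 mice left out differed from the rest in different members. WT LF fed replicate 2 had 191 CPM of Col1a1, 155 CPM of Col1a2 and 210 CPM of Col3a1, which is 17.8, 9.24 and 8.78 times the median of the other WT LF fed mice, and 610 CPM of Dcn and 10 counts of Timp1. Its Acta2 (10.1 CPM), Myl9 (2.74 CPM), Des (10.4 CPM) and Lrat (24.7 CPM) lay within the range of its group. Its biliary list summed to 327 CPM, beside 49.5 to 141 CPM in the 30 mice, and its hepatocyte list to 32636 CPM, beside 42112 to 69263 CPM. KO HF fasted replicate 4 had 1936 CPM of Des and 112 CPM of Acta2, 0.605 CPM of Lrat and 834 CPM of the hepatocyte list.

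**Figure D5:**
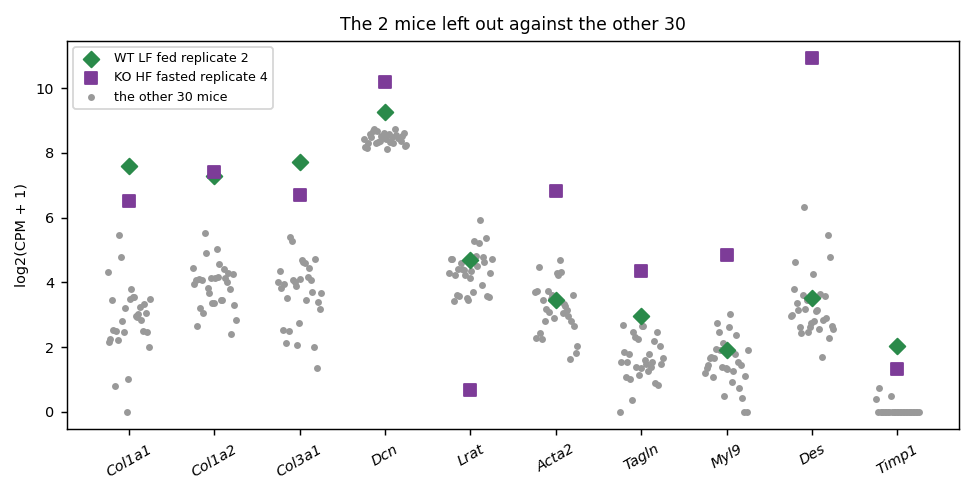
Level of the 10 genes as log2(CPM + 1) in the 30 mice (grey) and in the 2 mice left out, WT LF fed replicate 2 (green diamonds) and KO HF fasted replicate 4 (purple squares). The diamonds stand above the grey points for the 3 collagen genes (155 to 210 CPM) and within them for Acta2 and Lrat, and the square stands below them for Lrat (0.605 CPM).

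Some of these genes share their locus with others in GENCODE vM21. Tagln overlaps Pcsk7 and Gm48529, Des Gm15179, Timp1 Syn1 and Lrat Rbm46os on the opposite strand, and Col1a2 overlaps Gm43921 and Col3a1 Gm47302 on the same strand. The strand setting of the counting was not given in the sources used here, so that reads of the members and of these partners may not be told apart.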

How the data were processed

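Total RNA of freeze-clamped liver was made into QuantSeq 3′ libraries. The authors mapped reads to GRCm38 with HISAT 0.1.5 and SAMtools 1.2, counted them per Ensembl gene with HTSeq 0.6.1p1, and deposited whole-number counts without normalization for 20076 genes and 32 mice. Of these, 163 had no symbol in GENCODE vM21 (0.125% of counts). A 3′ library counts transcripts by their ends, so that gene length does not enter.

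Counts were TMM-scaled and tested with edgeR 4.0.16 in R 4.3.3 (filterByExpr, robust quasi-likelihood F test, Benjamini-Hochberg adjustment over all genes tested, threshold 0.05). Fasting, diet and their interaction came from 1 model of 8 groups over 30 mice, and each KO to WT comparison from the mice of its condition. DESeq2 1.42.0, limma 3.58.1 voom, DESeq2 size factors, no filter, lane, age or replicate terms, all 32 mice and leaving out mice were alternatives. Lane 7 or 8 alone and 31 mice were added after the data had been seen. The code was tested on simulated data.

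The members and lists were chosen with earlier results of these data known. One gene of the matrix turnover list is not reported here. Named were the 10 members, Acadm, up to 4 called genes of each list by p (Col5a1 and P4ha1, each the fifth of its list, were named outside this rule to complete their counts), and the 8 genes most like Acta2 and Col3a1. Same-numbered KO and WT mice had residual correlations of -0.130 to 0.127, and the main fits did not pair mice by number. Such correlations, taken after centring on small groups, cannot exclude a pairing. The labels do not say which mice were littermates. Nothing in the labels says more of each sample than that it is a separate mouse. Intervals are not given, and floors cover counting error only.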

Additional observations from a re-analysis of the deposited data

Results flagged for a closer look

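Of 54 tests for a mouse far from its group, 5 found one, where chance gives about 5% of groups. Col1a2 was at 18.7 CPM in WT LF fasted replicate 3, beside 8.26 to 9.19 CPM in the others of its group. Col3a1 was at 8.11 CPM in WT LF fasted replicate 4 (others 2.98 to 3.38), at 1.55 CPM in KO LF fasted replicate 4 (others 4.64 to 5.67) and at 16.2 CPM in WT HF fasted replicate 2 (others 9.52 to 10.4). Dcn was at 298 CPM in WT LF fasted replicate 4 (others 348 to 358).

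In the 2 mice outside the comparisons, members were above all 30 others. Both libraries also departed from the 30 outside the members, with hepatocyte lists of 32636 and 834 CPM beside at least 42112 CPM. How many other genes were above all 30 is not given here, so the members are only listed. In WT LF fed replicate 2, left out as an outlier, the members above all 30 were Col1a1 (191 CPM), Col1a2 (155 CPM), Col3a1 (210 CPM), Dcn (610 CPM), Tagln (6.70 CPM) and Timp1 (3.05 CPM). In KO HF fasted replicate 4 they were Des (1936 CPM), Dcn (1162 CPM), Col1a2 (169 CPM), Acta2 (112 CPM), Col3a1 (103 CPM), Col1a1 (90.5 CPM), Myl9 (27.5 CPM), Tagln (19.4 CPM) and Timp1 (1.51 CPM).

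The fasting change differed between the diets for 3 of 83 tested pathway genes (3.61%, beside 2.46% of all genes tested) in the edgeR interaction test, with the HF change minus the LF change at 1.26 for Actn1 (adjusted p = 0.000861), 2.92 for Pdgfc (0.0208) and -1.97 for Ccn2 (0.0357). Median Actn1 was 79.0 CPM in LF fed and 29.6 CPM in LF fasted mice, and 55.6 and 52.6 CPM in HF fed and HF fasted mice. Median Ccn2 was 8.73 and 28.1 CPM on the low-fat diet and 12.2 and 9.42 CPM on the high-fat diet.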

How the results depend on the processing

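The fasting call of Col3a1 held in every alternative run (-1.88 to -1.19), and the counts of called KO to WT members stayed at 0. With all 32 mice 2 members and 6 pathway genes were called with fasting and 0 and 1 with diet, and with 31 mice 0 members with diet. Lane 7 alone gave 1 and 2 with fasting and 1 and 1 with diet, lane 8 alone 1 and 10 with fasting and 0 and 1 with diet. Diet list calls were 4 with DESeq2 and 1 with lane, age, voom or no filter. With the replicate block they were 1, members called stayed at 4 with fasting and 2 with diet, and the KO to WT values in LF fed of Des (0.082) and Lrat (0.15) and in HF fasted of Des (0.030) and Lrat (-0.13) turned sign; the block changed no other member call.

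Other sign changes were all in values that pass no test. With 32 mice the fasting values were 0.25 (Acta2) and 0.94 (Des), the fasting by diet values 0.41 (Dcn), 2.13 (Des) and -0.061 (Lrat), and the HF fasted KO to WT values 0.60 (Dcn), 5.30 (Des) and -0.30 (Lrat). With 31 mice Dcn had -0.040 (diet), 0.048 (fasting by diet) and -0.004 (fasting). Lane 7 alone gave -0.078 (Dcn, diet), 0.52 (Acta2, fasting) and 0.20 (Tagln, fasting), lane 8 alone -0.0059 (Myl9, diet), voom -0.18 (Tagln, diet), and lane as a term -0.0048 (Lrat, HF fasted) and 0.30 (Lrat, LF fed). Without the 3 muscle mice the values were -0.012 (Tagln, diet), 0.32 (Des, fasting by diet), 0.088 (Des, fasting) and -0.090 (Lrat, HF fasted). The cause was not tested.

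Leaving out each mouse in turn gave 2 to 5 fasting and 1 to 2 diet members, 0 to 1 fasting by diet members and 1 to 4 diet list genes. Ranges of sign-changing values were -0.035 to 0.17 (Acta2, diet), -0.087 to 0.29 (Myl9, diet), -0.038 to 0.42 (Tagln, diet), -1.15 to 0.13 (Des, fasting by diet) and -0.063 to 0.38 (Lrat, fasting by diet). In HF fasted mice they were -0.082 to 1.06 (Col1a1) and -0.17 to 0.27 (Lrat), in LF fed mice -0.14 to 0.082 (Dcn), -0.31 to 0.19 (Des) and -0.49 to 0.27 (Lrat). Among the values given without a test they were -0.13 to 0.48 (Acta2, HF fasted), in HF fed mice -0.94 to 1.11 (Col1a1), -0.25 to 0.56 (Col1a2), -0.33 to 0.31 (Col3a1), -1.56 to 1.40 (Des) and -0.25 to 0.53 (Lrat), and in LF fasted mice -0.41 to 0.84 (Des) and -0.29 to 0.37 (Col3a1). Other settings also turned the sign of the HF fed values of Col1a1, Col1a2, Des and Lrat (to at most 0.099 and 0.060 and at least -0.62 and -0.048) and of Acta2 in HF fasted mice (at least -0.13).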
